A study of Homo sapiens with 36 samples.

Results

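The 4 genes described here lie side by side on the long arm of chromosome 1: RNPEP, ELF3, ELF3-AS1 and TIMM17A. They were found among the 74628 genes of the count table by the Ensembl identifiers that map to these symbols. RNPEP, ELF3 and ELF3-AS1 were chosen by their counts in sgRELA against sgControl, as neighbours proposed to move together with the RELA guide. Guide differences are therefore given as descriptions, without p-values. TIMM17A is the next gene upstream of RNPEP and serves as a comparison within the locus. In the data, RNPEP and ELF3-AS1 were about equally higher with the RELA guide, TIMM17A was not, and ELF3 was so low that its difference rests on few reads. Where RNPEP and ELF3-AS1 overlap, their reads cannot be told apart here.

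RNA came from Jurkat cells, a human T-lymphoblastic leukaemia line, that carry dCas9-VP64 and mCherry. dCas9-VP64 is a Cas9 that cannot cut, fused to a transcriptional activator, and a guide RNA brings it to a promoter. All 6 groups were made in this line. They differ in the lentiviral pXPR vector, which carried a guide against RELA (sgRELA) or a non-targeting guide (sgControl), and in the day of harvest, which was day 5, 6 or 7 after transduction with 3 days of puromycin selection. Each group held 3 biological replicates, and each RNA sample was made into 2 libraries by RamDA-seq, a full-length total RNA method, from 100 pg of RNA. Each guide is 1 label, so an effect of the guide and an effect of RELA cannot be told apart.

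RNPEP encodes aminopeptidase B, a zinc enzyme of the M1 family that removes arginine or lysine from the amino end of peptides. ELF3 encodes a transcription factor of the ETS family, whose members bind DNA through the core GGAA. It is best known from epithelial cells, where it is induced by inflammatory signals through NF-kB. ELF3-AS1 is a long non-coding RNA read from the strand opposite to ELF3. TIMM17A encodes a subunit of the TIM23 complex, the channel that takes proteins into the mitochondrial matrix. RELA encodes the p65 subunit of NF-kB.

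In the GENCODE v29 annotation of GRCh38, TIMM17A (ENSG00000134375) spans chr1:201955491-201970661 on the plus strand. RNPEP (ENSG00000176393) follows on the same strand at chr1:201982372-202006147, after a gap of 11710 bases. ELF3 (ENSG00000163435) lies on the plus strand at chr1:202007945-202017188, only 1797 bases beyond the end of RNPEP. ELF3-AS1 (ENSG00000234678) lies on the minus strand at chr1:201995696-202010463, and so runs from the 5′ part of ELF3 back into RNPEP. It overlaps 10452 bases of RNPEP and 2519 bases of ELF3. Exons of RNPEP and ELF3-AS1 share 636 bases, which is 18.3% of the exon bases of RNPEP and 11.4% of those of ELF3-AS1. Exons of ELF3 and ELF3-AS1 share 664 bases, 9.23% and 11.9% of the exon bases of each. The strand setting of the counting is not given in the sources used here, so reads of these overlapping genes cannot be told apart in the shared stretches. Total RNA also holds unspliced transcripts, and part of the ELF3-AS1 exons lies in introns of RNPEP. TIMM17A overlaps none of the other 3 genes.

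**Figure D1:**
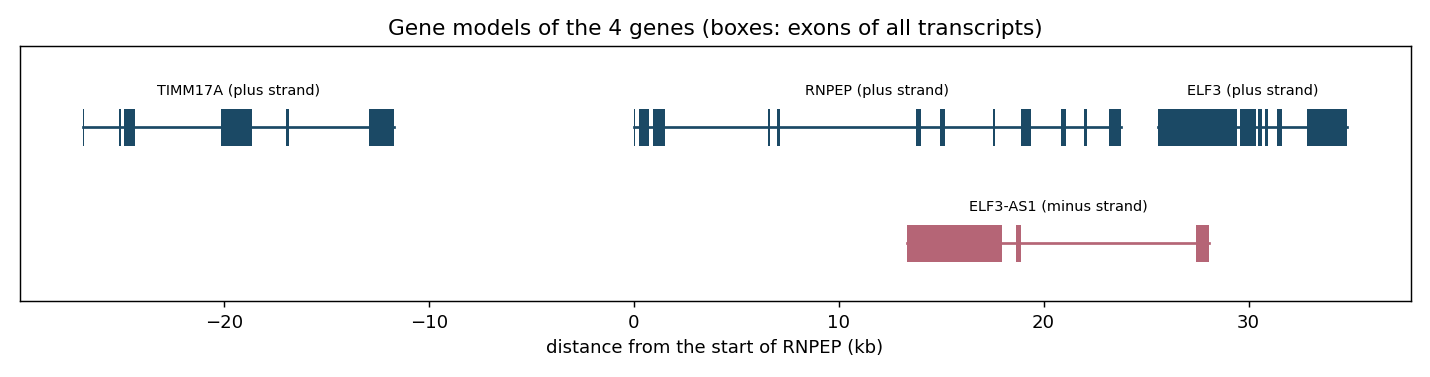
Gene models of the 4 genes, with distance from the annotated start of RNPEP in kb on the x axis, exons of all annotated transcripts as boxes and the strand given beside each name. ELF3-AS1 reaches back over the 3′ part of RNPEP, while TIMM17A ends 11.7 kb before RNPEP starts.

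The starts of the 4 genes were read from the RefSeq promoter table of GRCh38.p14, which had a window for all 4 and places each start inside the GENCODE gene, farthest inside for ELF3. The bases before the start of RNPEP, ELF3 and TIMM17A are shown because they hold, or lack, a match to the 10-base NF-kB consensus, the site type that RELA protein binds. Capitals mark that consensus in RNPEP (chr1:201982398-201982647) and ELF3 (chr1:202010337-202010586), and CCAAT on either strand in TIMM17A (chr1:201955253-201955502). All 3 are on the plus strand, 250 bases each, and end at the base before the start.
RNPEP: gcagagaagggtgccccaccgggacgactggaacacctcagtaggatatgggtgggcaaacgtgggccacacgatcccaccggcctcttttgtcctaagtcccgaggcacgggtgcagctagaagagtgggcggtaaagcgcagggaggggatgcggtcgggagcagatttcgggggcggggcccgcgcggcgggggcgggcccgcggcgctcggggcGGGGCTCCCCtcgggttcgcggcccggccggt
ELF3: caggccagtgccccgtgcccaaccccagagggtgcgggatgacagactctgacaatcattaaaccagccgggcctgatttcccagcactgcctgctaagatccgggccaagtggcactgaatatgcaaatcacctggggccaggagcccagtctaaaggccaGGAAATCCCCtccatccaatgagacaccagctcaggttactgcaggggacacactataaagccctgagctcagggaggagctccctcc
TIMM17A: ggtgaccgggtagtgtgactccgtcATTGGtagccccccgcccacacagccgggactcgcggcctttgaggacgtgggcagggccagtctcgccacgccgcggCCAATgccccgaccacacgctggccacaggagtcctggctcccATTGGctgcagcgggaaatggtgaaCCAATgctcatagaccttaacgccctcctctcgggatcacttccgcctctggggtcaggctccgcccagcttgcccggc
The RNPEP stretch has 1 consensus match, GGGGCTCCCC, which begins 32 bases before the start and shares 2 bases with the last of 4 GC boxes (GGGCGG). In ELF3 the match is GGAAATCCCC, read on the reverse strand, 88 bases before the start. Its first 4 bases are also a GGAA core, and a TATAAA follows 34 bases before the start. The RefSeq start of ELF3-AS1 lies 234 bases from that of ELF3 on the other strand, and the 300-base windows of the pair share 267 bases. The ELF3-AS1 window holds the same site, written GGGGATTTCC on its strand. The TIMM17A window and the second RefSeq window of RNPEP (chr1:201983111-201983410) hold no consensus match. Both strands were searched. Of all 35116 windows of 300 bases, 5.91% hold the NF-kB consensus, 95.5% GGAA, 11.5% TATAAA, 34.6% CCAAT and 45.0% GGGCGG. A match describes the letters and shows no binding, which was not measured.

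Libraries held 7586205 to 16124473 counts, and the 18 RNA samples, with both libraries added, 18769530 to 29503934. The unit of a level is CPM, a gene's count relative to the TMM-scaled total of its sample, shown as mean ± SD over 3 RNA samples. All 15 T-cell and Jurkat markers that were listed exceeded 1 CPM. One of them, CD28, was called higher in sgRELA with days added (0.31 ± 0.06 on the log2 scale, edgeR adjusted p = 0.0177), a call lost in either library set alone and without replicate 1 or 2 of either guide. Of 15 listed markers of other cell types, EPCAM, COL1A2 and HBB (epithelial, stromal and red cells) were at 0 in all RNA samples and 5 exceeded 1 CPM on average. Among those 5, the endothelial marker PECAM1 lay between 69.1 and 93.3 CPM, CD68 of macrophages between 17.7 and 40.8 and the stromal collagen COL1A1 between 1.95 and 10.3. RELA itself stood at 33.3 ± 5.27 CPM on day 5, 23.96 ± 6.01 on day 6 and 24.7 ± 2.14 on day 7 in sgControl. In sgRELA it stood at 293.7 ± 28.2, 201.1 ± 19.4 and 127.2 ± 8.16 CPM on the same days. The targeted gene was thus higher in every library given the RELA guide. In bulk RNA, fewer cells with a transcript and less of it per cell cannot be told apart.

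RNPEP varied least of the 4 genes between replicates, with a pooled SD of 0.12 on the log2(CPM + 1) scale, against 0.18 for TIMM17A, 0.35 for ELF3-AS1 and 0.62 for ELF3. In sgControl its counts per RNA sample were 844, 816 and 897 on day 5, 738, 849 and 814 on day 6, and 795, 695 and 1037 on day 7. In sgRELA they were 2269, 2550 and 2868 on day 5, 2978, 2818 and 2123 on day 6, and 2557, 2302 and 2569 on day 7. Every sgRELA sample thus held more reads than any sgControl sample. As levels, sgControl was at 37.7 ± 0.913, 36.7 ± 1.03 and 34.5 ± 5.77 CPM on days 5, 6 and 7, and sgRELA at 97.5 ± 5.10, 122.6 ± 10.3 and 100.7 ± 7.14 CPM. The fold was 2.59 on day 5, 3.34 on day 6 and 2.91 on day 7, which is a log2 difference of 1.37 ± 0.11, 1.74 ± 0.12 and 1.54 ± 0.12 (SE of the fit). With days added, 3 sums against 3, the log2 difference was 1.55 ± 0.06.

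The guides did not overlap for RNPEP on any day. All 9 sgControl RNA samples lay between 29.7 and 40.9 CPM, and all 9 sgRELA samples between 91.96 and 130.7 CPM. Single libraries showed the same separation, since the highest of 18 sgControl libraries had 47.1 CPM and the lowest of 18 sgRELA libraries 86.7 CPM. Per kilobase of exon, RNPEP stood at 10.4 ± 0.591 CPM in sgControl and 30.5 ± 0.306 in sgRELA, over the 3 sums of each guide. In sgControl that was close to TIMM17A, at 10.4 ± 1.21 CPM per kilobase.

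ELF3-AS1 was higher with the RELA guide by nearly the same fold, from a lower level. Its sgControl counts were 196, 139 and 178 on day 5, 214, 172 and 174 on day 6, and 174, 140 and 337 on day 7. The sgRELA counts were 491, 649 and 419 on day 5, 656, 600 and 318 on day 6, and 542, 496 and 502 on day 7. One sgControl sample, replicate 3 of day 7, stood apart from the other 8. Group levels in sgControl were 7.54 ± 1.13, 8.63 ± 1.61 and 8.83 ± 3.92 CPM on days 5, 6 and 7, against 20.1 ± 5.78, 24.1 ± 6.54 and 20.9 ± 0.635 CPM in sgRELA. The log2 differences were 1.41 ± 0.26, 1.48 ± 0.26 and 1.24 ± 0.26, and 1.37 ± 0.15 with days added. RNA samples did not overlap on any day, nor over all days, where sgControl reached from 5.99 to 13.3 CPM and sgRELA from 14.4 to 28.8 CPM.

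The libraries of that sample differed, with 282 counts of ELF3-AS1 (20.97 CPM) in library 2 and 55 (4.60 CPM) in library 1. Library 2 was the only sgControl library above the lowest sgRELA library, which had 12.9 CPM, and the next highest sgControl library had 10.9 CPM. Without that RNA sample the day 7 log2 difference was 1.66 for ELF3-AS1. RNPEP in the same sample was also the highest of sgControl, at 40.9 CPM, and without that sample the RNPEP difference on day 7 was 1.68. TIMM17A was at its highest of sgControl there too, at 50.7 CPM.

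ELF3-AS1 and RNPEP kept a similar ratio under both guides. Per RNA sample, the count of ELF3-AS1 divided by that of RNPEP was 0.170 to 0.325 in sgControl, with a median of 0.214, and 0.146 to 0.255 in sgRELA, with a median of 0.213. The ranges overlapped. The exons of both genes share bases and the strand of counting is unknown. RamDA-seq reads total RNA, so unspliced RNPEP could also add reads to ELF3-AS1 exons inside RNPEP introns. How much of this ratio, or of the ELF3-AS1 guide difference, is reads of RNPEP was not tested. The count of RNPEP divided by that of TIMM17A, which overlaps neither, was 0.772 to 1.29 in sgControl and 1.87 to 4.08 in sgRELA, with no overlap.

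ELF3 was near the limit of detection in Jurkat. In sgControl its counts per RNA sample were 16, 26 and 8 on day 5, 14, 0 and 2 on day 6, and 4, 5 and 0 on day 7. In sgRELA they were 7, 47 and 34 on day 5, 119, 33 and 6 on day 6, and 24, 11 and 57 on day 7. The samples of 1 group thus differed by up to more than an order of magnitude, and the highest value came from 1 sgRELA sample of day 6. A count of 0 still allows 0.137 CPM in sgControl replicate 2 of day 6 and 0.116 CPM in replicate 3 of day 7, taking 3 counts as the upper limit. These limits use the total counts of the sample without TMM scaling, unlike the levels. In sgControl 8 of 18 libraries had no ELF3 read, against 2 of 18 in sgRELA. All sgControl libraries together held 75 reads and all sgRELA libraries 338.

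Group levels of ELF3 in sgControl were 0.745 ± 0.423, 0.258 ± 0.373 and 0.127 ± 0.112 CPM on days 5, 6 and 7, and in sgRELA 1.11 ± 0.800, 2.34 ± 2.56 and 1.26 ± 1.01 CPM. The guides overlapped on days 5 and 6 and did not overlap on day 7. The fitted log2 difference was 0.58 ± 0.99 on day 5, 3.18 ± 1.09 on day 6 and 3.28 ± 1.14 on day 7. The day 6 value was 5.57 without sgControl replicate 1 and 1.80 without sgRELA replicate 1 of that day, and 1.25 and 5.64 in library sets 1 and 2 alone. The day 7 value was 5.81 in library set 2 alone and 2.43 without sgRELA replicate 3. With days added it was 2.08 ± 0.45, and 1.26 in library set 1 alone, with sums of 0.140 to 0.504 CPM in sgControl and 1.26 to 2.06 CPM in sgRELA. On day 5 the direction rested on single samples, since the difference was -0.024 without sgRELA replicate 2 and -0.68 in the first library set alone. Per kilobase of exon, ELF3 in sgRELA was at 0.216 ± 0.0606 CPM and ELF3-AS1 at 3.86 ± 0.679. By these counts the antisense RNA was the more abundant of the pair per length, with any reads of RNPEP in its exons included.

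TIMM17A, whose gene ends 11.7 kb upstream of RNPEP, differed little between the guides. Its counts were 882, 634 and 831 on day 5, 609, 713 and 766 on day 6, and 1030, 825 and 1285 on day 7 in sgControl. In sgRELA they were 835, 728 and 964 on day 5, 730, 712 and 797 on day 6, and 1101, 1230 and 1193 on day 7. Both guides held their highest counts on day 7. The sgControl levels were 34.5 ± 4.99, 31.9 ± 2.05 and 42.9 ± 7.71 CPM and the sgRELA levels 32.0 ± 2.55, 35.2 ± 5.60 and 47.8 ± 3.81 CPM on days 5, 6 and 7. The guides overlapped on all 3 days, with log2 differences of -0.11 ± 0.15, 0.14 ± 0.15 and 0.16 ± 0.15, and 0.06 ± 0.09 with days added.

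As a background for these non-overlaps, 5.85% of the 27553 genes tested were higher in sgRELA without overlap on day 5, 5.91% on day 6 and 5.24% on day 7. With days added the share was 6.34% of 28888 genes. RNPEP and ELF3-AS1 met this on all 3 days and in the sums, and ELF3 on day 7 and in the sums. Without overlap over all 9 RNA samples against 9, 20 genes were higher, which is 0.0726% of the genes tested, and RNPEP and ELF3-AS1 were among them. Nothing is read from these shares about the members, since the guide contrast chose them.

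**Figure D2:**
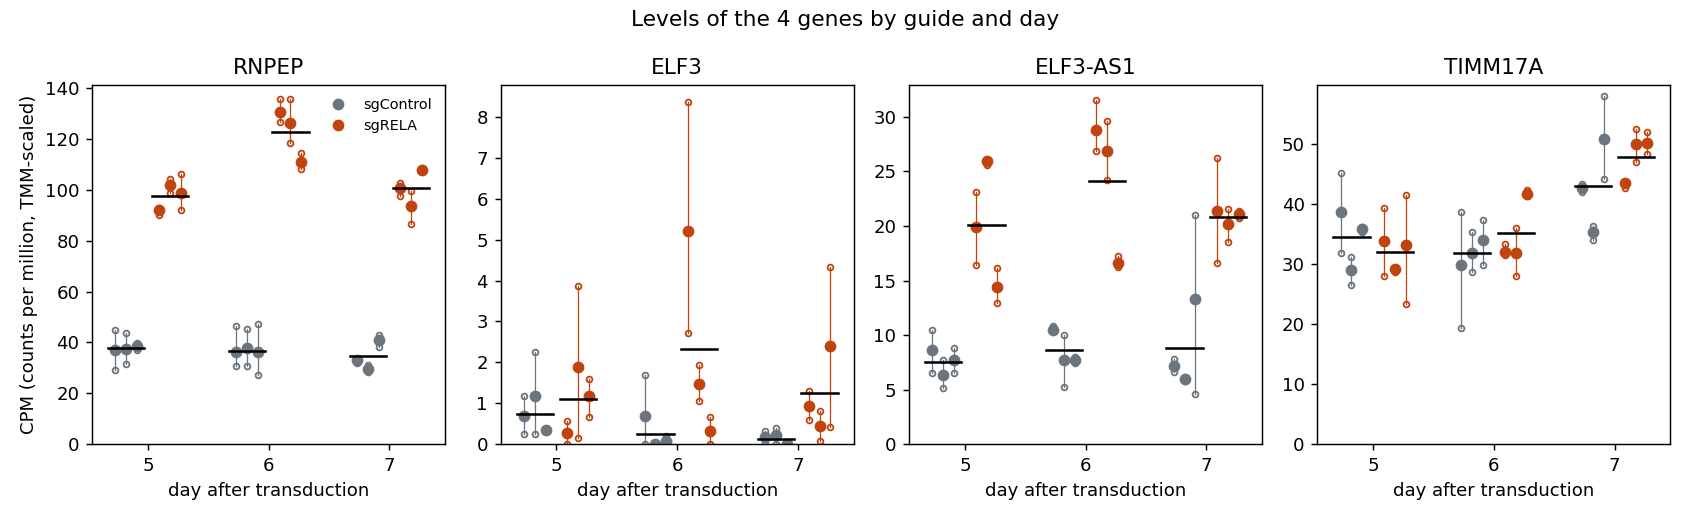
Level of each gene in CPM (y axis, from 0, with its own scale per panel) by day after transduction (x axis) and guide. Filled points are RNA samples, open points joined by a line are the 2 libraries of that RNA, and black bars are means of 3 RNA samples. RNPEP in sgRELA lies between 91.96 and 130.7 CPM and in sgControl between 29.7 and 40.9 CPM, while ELF3 libraries of 1 RNA can differ widely.

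How well 2 libraries of 1 RNA matched differed by gene. For RNPEP, the higher library exceeded the lower by a factor of 1.01 to 1.74, with a median of 1.10. For TIMM17A the factor was 1.02 to 2.00 and for ELF3-AS1 1.01 to 4.56. For ELF3, 10 of 18 pairs had reads in both libraries, with factors of 1.06 to 26.1 and a median of 3.81, and in 6 pairs only 1 library had any read. Pairs of RNPEP thus matched more closely than pairs of ELF3, but not in every RNA sample. The widest RNPEP pair, sgControl replicate 3 of day 6, had 27.1 and 47.1 CPM. In sgControl on day 5, single libraries reached from 29.2 to 45.1 CPM, while the SD of 0.913 is that of RNA samples with both libraries added.

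Genes around the locus were then compared between the guides. RefSeq places 36 other genes within 500 kb of RNPEP, of which 25 have a row in the counts, 20 have a count and 15 passed the filter for the summed comparison. None of the 15 was called by edgeR at an adjusted p under 0.05, against 0.363% of all genes tested, and none had an unadjusted p under 0.05. DESeq2 also called none of them. Their median log2 difference was -0.06 and their range -0.63 to 0.25. Upstream, LMOD1 (a leiomodin, an actin nucleator of smooth muscle) differed by -0.18 ± 0.46 and SHISA4 by -0.63 ± 0.43, both below 1 CPM. Downstream, GPR37L1 (an orphan receptor) differed by 0.18 ± 0.21. Well expressed neighbours were close to 0. IPO9, an importin at 245 CPM, differed by -0.06 ± 0.05, and PTPN7, a tyrosine phosphatase of blood cells at 328 CPM, by -0.0021 ± 0.041. Farther out, a list of 21 genes of the region held 1 call, TNNI1, a troponin of slow muscle 561 kb upstream of RNPEP. It had 15 to 63 counts in the 3 sgControl sums and 0 to 2 in the sgRELA sums (edgeR adjusted p = 0.0339). That call was lost in every fit that left out 1 replicate other than sgControl replicate 2, with adjusted p up to 0.437, and with the replicate block (edgeR adjusted p = 0.0947).

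**Figure D3:**
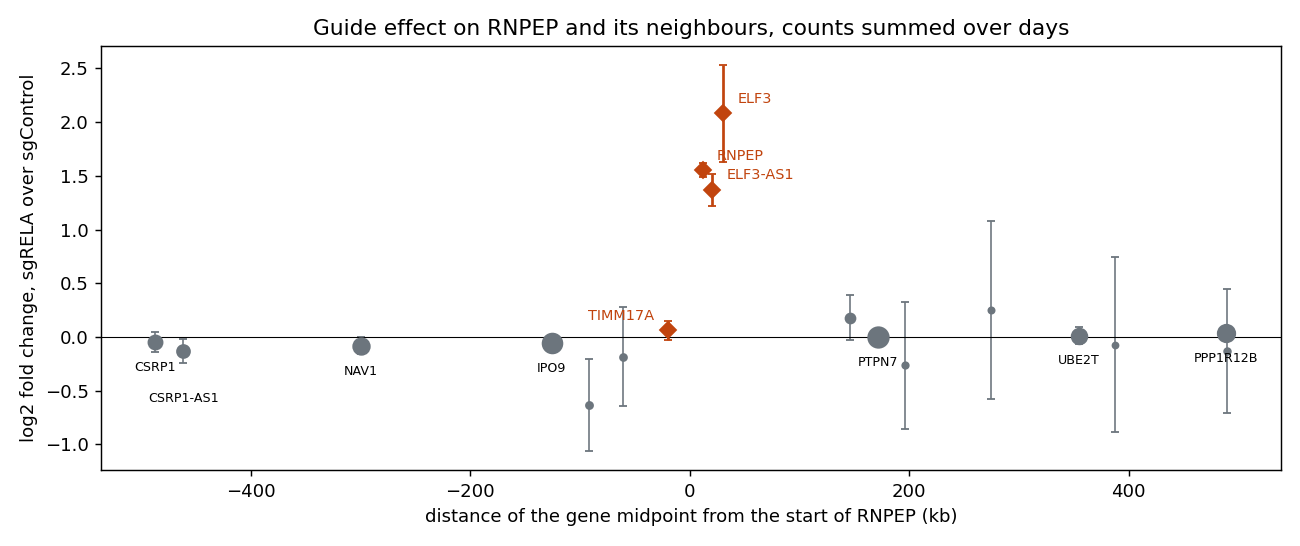
Log2 fold change of sgRELA over sgControl with days added (y axis, bars are SE of the fit) against the distance of each gene's midpoint from the start of RNPEP in kb (x axis). Diamonds are the 4 genes and circles 14 of the 15 tested neighbours within 500 kb, larger for higher CPM. RNPEP, ELF3-AS1 and ELF3 lie at 1.55, 1.37 and 2.08, while TIMM17A lies at 0.06 and the other genes between -0.63 and 0.25.

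The days were compared within each guide, a contrast that the choice of genes did not use. Day and any batch of harvest cannot be told apart. RNPEP did not pass edgeR's quasi-likelihood test between any pair of days in either guide. Among all genes the shares called were 8.87% from day 5 to 6, 14.6% from day 6 to 7 and 13% from day 5 to 7 in sgControl, and 6.91%, 12.2% and 12.4% in sgRELA. In sgControl its log2 changes were -0.04 ± 0.12 from day 5 to 6, -0.09 ± 0.11 from day 6 to 7 and -0.13 ± 0.11 from day 5 to 7. In sgRELA the day 6 samples lay above those of both other days without overlap, where 25.7% of all genes had no overlap in either direction between days 5 and 6 and 29.4% between days 6 and 7. The change was 0.33 ± 0.11 from day 5 to 6 (edgeR adjusted p = 0.0726; DESeq2 adjusted p = 0.0188) and -0.28 ± 0.11 from day 6 to 7 (edgeR adjusted p = 0.104). From day 5 to 7 it was 0.05 ± 0.11. Over those days RELA in sgRELA fell by 1.21 on the log2 scale, with an SE of 0.13 (edgeR adjusted p = 6.43e-08), from 293.7 to 127.2 CPM. RNPEP at 97.5 and 100.7 CPM did not show a fall on those days, and a test of one change against the other was not made. RELA was also lower on day 7 than on day 5 in sgControl, with a log2 change of -0.43 ± 0.13 (edgeR adjusted p = 0.0319).

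ELF3 and ELF3-AS1 passed the test between no pair of days. ELF3-AS1 changed by 0.23 ± 0.26 in sgControl and 0.06 ± 0.25 in sgRELA from day 5 to 7. For ELF3 those changes were -2.52 ± 1.13 in sgControl (edgeR adjusted p = 0.158) and 0.18 ± 0.98 in sgRELA. Day 5 and day 7 of sgControl did not overlap for ELF3, as was so for 29% of all genes, and in the second library set alone the change was -5.79 (edgeR adjusted p = 0.0389). The sgControl change rests on 0 to 26 counts per sample.

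With edgeR, TIMM17A alone of the members passed the test between days, and in sgRELA only. DESeq2 also called RNPEP from day 5 to 6 in sgRELA, as given above. In sgRELA TIMM17A rose by 0.58 ± 0.15 on the log2 scale from day 5 to 7 (edgeR adjusted p = 0.00905). Its samples did not overlap, which was so for 29.6% of all genes. The call was lost in the first library set alone (0.33, adjusted p = 0.620 with edgeR) and without sgRELA replicate 2 of day 5 (0.51, adjusted p = 0.0594 with edgeR). In sgControl the change over the same days was 0.31 ± 0.15 (edgeR adjusted p = 0.195). From day 6 to 7 the changes were 0.43 ± 0.15 in sgControl and 0.44 ± 0.15 in sgRELA, with adjusted p of 0.0550 and 0.0516 from edgeR and 0.0300 and 0.0253 from DESeq2. The samples of days 6 and 7 did not overlap in either guide, which was so for 28% of all genes in sgControl.

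No member's guide difference was shown to depend on the day. In edgeR's interaction test the unadjusted p was 0.0898 for RNPEP, 0.126 for ELF3, 0.396 for TIMM17A and 0.789 for ELF3-AS1. None passed after adjustment, and 0.00363% of all genes did. For RNPEP the single interaction contrast of day 6 against day 5 was 0.37 ± 0.16 on the log2 scale. Its unadjusted p from edgeR was 0.0296 and its adjusted p 0.999, and no gene passed in that contrast.

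**Figure D4:**
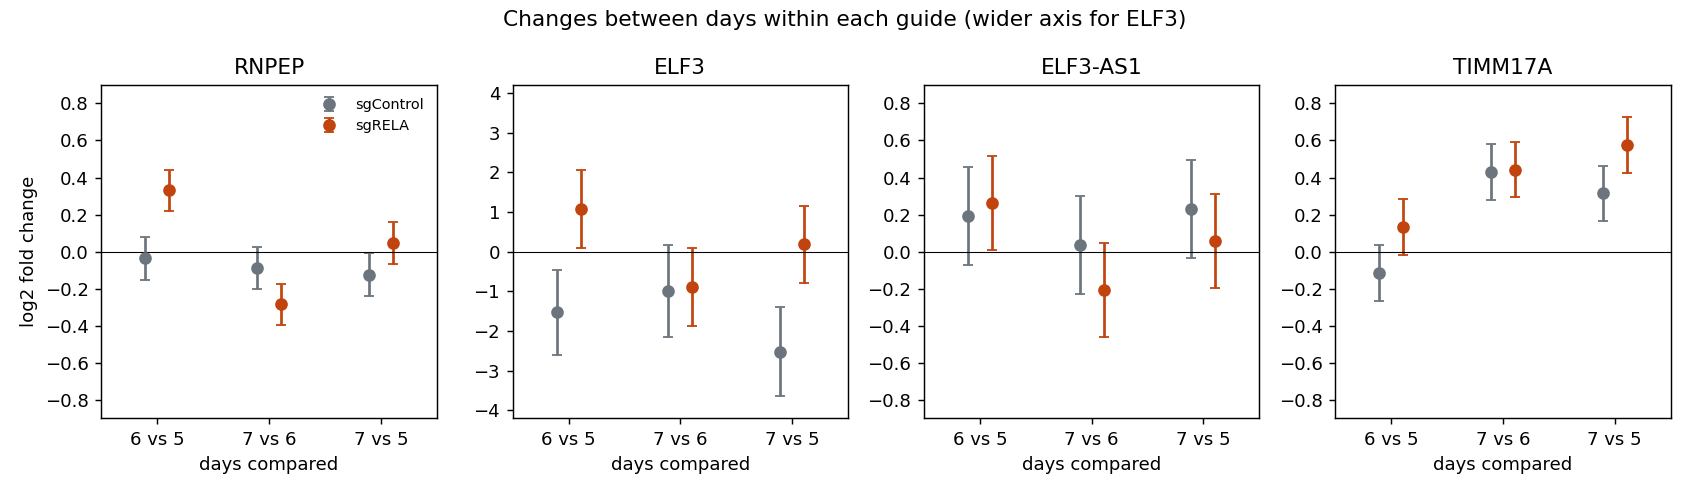
Log2 fold change between days (y axis, bars are SE of the fit) for each pair of days (x axis) within sgControl and sgRELA, 3 RNA samples per group; ELF3 has a wider axis. TIMM17A from day 5 to 7 in sgRELA, at 0.58, is the change that passed edgeR's test.

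Relatives of each gene were counted by lists that were written with earlier results of these data known. Of 12 other M1 aminopeptidases and relatives, 10 were tested for the guide with days added and none was called by edgeR or DESeq2, with a median log2 difference of 0.05 against -0.0019 for all genes. RNPEPL1, the closest relative by name, differed by -0.13 ± 0.09. ERAP2, which trims peptides in the endoplasmic reticulum, differed by 0.16 ± 0.06 and LNPEP, the oxytocinase, by 0.12 ± 0.04. Of 26 other ETS factors, 20 were tested and none was called by edgeR, with a median of 0.02. The smallest p belonged to ELF4, at 0.36 ± 0.10 (adjusted p = 0.183 with edgeR, 0.0185 with edgeR and no filter on low counts, 0.0382 with DESeq2), and ERG, at -0.50 ± 0.26. Unadjusted p under 0.05 was seen in 2 of the M1 genes and 1 of the ETS genes.

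Epithelial genes and known targets of ELF3 were mostly too low to test. Of 25 listed, 10 were tested for the guide and none was called by edgeR or DESeq2, with a median of 0.00 and 2 at an unadjusted p under 0.05. TGFBR2, a receptor of TGF-beta that ELF3 is known to activate, stood at 58.2 CPM in sgControl and 68.1 in sgRELA, with a log2 difference of 0.23 ± 0.07 (edgeR adjusted p = 0.273). The keratin KRT8 stood at 0.305 and 0.506 CPM. Of the 10 tested genes, 5 had a positive difference, and the range was -2.21 to 0.73. Others of the list were lower in sgRELA. Leaving out 1 replicate gave -3.60 to -1.41 for GRHL2 and -1.26 to -0.53 for the keratin KRT18.

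Of 23 other genes of mitochondrial protein import, all were tested and none was called for the guide by edgeR or DESeq2, with a median of 0.02 and 1 at an unadjusted p under 0.05. Between day 5 and day 7, 7 rose and none fell in sgRELA, and 5 rose and 1 fell in sgControl. In library set 1 alone, 1 was called in sgRELA (TOMM40) and 0 in sgControl, and the sgRELA count was 3 without sgRELA replicate 3 of day 5 and 4 without replicate 1 of day 5, or replicate 1 or 3 of day 7. Among all genes, 6.35% rose and 6.06% fell in sgRELA, and 6.65% rose and 6.36% fell in sgControl. TIMM23, the partner of TIMM17A in the channel, rose by 0.57 ± 0.11 in sgControl (edgeR adjusted p = 0.000373) and by 0.58 ± 0.11 in sgRELA (edgeR adjusted p = 0.000279). TOMM40, the pore of the outer membrane, rose by 1.13 ± 0.17 in sgRELA (edgeR adjusted p = 1.26e-05). The protease YME1L1 fell by 0.49, with an SE of 0.10, in sgControl (edgeR adjusted p = 0.000757). The median over the list was 0.17 in sgRELA and 0.19 in sgControl.

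The neighbours within 500 kb were also compared between days. Of 14 tested in that fit, 2 rose in both guides from day 5 to 7, where 6.65% of all genes rose in sgControl and 6.35% in sgRELA, and nothing particular to the locus is read from that count. In library set 1 alone only UBE2T was called in each guide. UBE2T, a ubiquitin-conjugating enzyme of DNA repair, rose by 1.05 ± 0.17 in sgControl (edgeR adjusted p = 6.41e-05) and 0.92 ± 0.17 in sgRELA (edgeR adjusted p = 0.000324). PTPN7 rose by 0.53 ± 0.08 and 0.45 ± 0.08 (edgeR adjusted p = 3.76e-05 and 0.000405). PPP1R12B, a myosin phosphatase subunit, fell by 0.40, with an SE of 0.10, in sgRELA (edgeR adjusted p = 0.00688), a call lost in either library set alone and without sgRELA replicate 1 of day 7.

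Of 18 known NF-kB genes, RELA included, 16 were tested for the guide and 5 were called, all higher, against 0.242% of all genes tested. RELA, the target of the guide, is 1 of the 5. The count was 4 without sgControl replicate 1, without sgRELA replicate 1 or 3, and in either library set alone. NFKBIA, the inhibitor of NF-kB, was higher in sgRELA by 1.19 ± 0.12 on the log2 scale (edgeR adjusted p = 4.50e-06). RELB, another NF-kB subunit, was higher by 2.12 ± 0.22 (edgeR adjusted p = 7.48e-06).

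Likeness was measured as the root mean square difference of log2(CPM + 1), each gene centred on its mean, over the 18 RNA samples, among 18890 genes. These samples hold both guides, so the contrast by which RNPEP, ELF3 and ELF3-AS1 were chosen enters every distance, and nothing is read from how close the members are. Outside the members, the genes most like RNPEP were CD79A (0.235), EPHX1 (0.331), NFKBIA (0.338), RELB (0.350) and SERPINA1 (0.369), against a median of 0.839 over all genes. ELF3-AS1 was at 0.269 from RNPEP, and ELF3 at 0.630 and TIMM17A at 0.794. CD79A, a B-cell receptor subunit, ranged over 16.4 to 26.2 CPM in sgControl and 48.2 to 62.6 CPM in sgRELA. It is also 1 of the 15 listed markers of other cell types. Their summed level, CD79A included, was 124.6 to 152.2 CPM in sgControl and 164.5 to 198.7 CPM in sgRELA. The median of the sum was 136.2 CPM in sgControl and 181.9 in sgRELA, and that of CD79A alone 20.0 and 56.9. Most of the difference between the summed medians thus lay in CD79A. The B-cell marker MS4A1 stayed at or below 0.173 CPM in all samples. The part of other cells in the guide differences was not tested.

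Outside the members, the genes most like ELF3 were ZNF385C (0.448), ENSG00000305049 (0.474), NCOA4P3 (0.497), CSPG4 (0.509) and ENSG00000228779 (0.512), against a median of 0.745. These distances were larger than those around RNPEP, and closer to the median. ELF3-AS1 was at 0.602 from ELF3.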

How the data were processed

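Raw counts per gene for 36 libraries come from a table the authors deposited, whose values the labels call raw counts. The submitters' processing notes name cutadapt 1.18, STAR 2.7.9a and GRCh38; the counting tool, annotation and strand setting are not given in the sources used here. Both libraries of each RNA were summed. The 18 sums were fitted in edgeR 4.0.16 (R 4.3.3) with a mean per group of guide and day, TMM scaling, filterByExpr (minimum count 10), a quasi-likelihood test and adjustment over all genes by Benjamini and Hochberg. For the guide over all days, counts were added per guide and replicate number. The threshold for a call was an adjusted p of 0.05. SE values were derived from the F statistic.

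On simulated counts for 26389 genes, the day 7 against day 5 comparison in sgRELA recovered 55.5% of 200 changed genes, with 4.31% of calls false. Those counts were drawn independently with the spread the fit had estimated. The changes had chosen sizes and were set in sgRELA on day 7 only, with no other effect of day or guide. Both rates hold for these settings and need not hold for the real data. Library totals were 7586205 to 16124473 counts, and the limit for a count of 0 covers counting error only. Each condition was transduced in triplicate per the labels' protocols, which tie no replicate to a transduction, so p-values measure the spread between these samples. Alternatives were DESeq2 1.42.0, other size factors, no filter, each library set alone, a replicate block and left-out samples.

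The members, the gene lists and the tests were chosen with earlier results of these data known. Named were the members; among neighbours, the 2 nearest tested genes on each side and the 6 most abundant; and in each list, the 4 genes with the smallest p, of which some are given here. A neighbour and a marker gene are not reported here.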

Additional observations from a re-analysis of the deposited data

Results flagged for a closer look

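Single libraries were searched in 24 sets of 6, the libraries of each gene and group. In 4 sets the highest library stood further from the rest than Dixon's criterion allows, where chance gives about 1 set in 20 for independent values. The 6 libraries of a set are pairs from 3 RNA samples, so that rate does not hold for them. For ELF3 in sgControl on day 6, library 1 of replicate 1 had 1.69 CPM (14 reads), while the other 5 lay between 0 and 0.197. For ELF3 in sgRELA on day 6, library 2 of replicate 1 had 8.36 CPM (85 reads), while the others lay between 0 and 2.73. For ELF3 in sgRELA on day 7, library 1 of replicate 3 had 4.34 CPM (52 reads), while the others lay between 0.0797 and 1.30. For ELF3-AS1 in sgControl on day 7, library 2 of replicate 3 had 20.97 CPM (282 reads), while the others lay between 4.60 and 7.80.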

How the results depend on the processing

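RNPEP and ELF3-AS1 kept the direction of their guide difference on every day under all alternatives run. With days added, leaving out 1 replicate gave 1.52 to 1.60 for RNPEP, 1.23 to 1.51 for ELF3-AS1, 1.69 to 2.38 for ELF3 and -0.03 to 0.14 for TIMM17A. ELF3 moved most: 1.26 in library set 1, 3.11 in set 2 and 2.91 without library 1 of the RNA samples with few detected genes. Those samples were sgControl replicate 2 of day 5 and replicate 1 of day 6. Their library 1 held 23 and 14 of the 75 ELF3 reads of sgControl. The day 5 difference of ELF3 turned to -0.68 in library set 1 and -0.024 without sgRELA replicate 2 of that day. Leaving out 1 sample of that day gave up to 1.08. The cause was not tested.

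Leaving out 1 sample, the day 7 against day 5 change was 0.51 to 0.64 for TIMM17A in sgRELA and 0.17 to 0.44 in sgControl, -0.01 to 0.10 and -0.27 to -0.03 for RNPEP, -0.67 to 0.78 and -3.11 to -1.95 for ELF3, and -0.14 to 0.28 and -0.20 to 0.44 for ELF3-AS1. In library set 1 TIMM17A in sgRELA changed by 0.33, and in set 2 ELF3 in sgControl by -5.79.

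Same-numbered samples of both guides on one day correlated at -0.03 to 0.13 in their deviations from the group means (9 pairs, 10465 genes), and those of 1 guide on different days at -0.27 to 0.08 (18 pairs). Only 1 of the 9 pairs and none of the 18 was over 0.1, so the samples were taken to share only a number. With the replicate number as a block, 124 genes were called for the guide with days added, and the TIMM17A change from day 5 to 7 in sgRELA was 0.58 (edgeR adjusted p = 0.00551). The block brought the TIMM17A changes from day 6 to 7 past the threshold, at an adjusted p of 0.0470 in sgControl and 0.0330 in sgRELA.

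Counts of called genes differed with the tool, the filter and the libraries used. For the guide, 38, 59 and 25 genes were called on days 5, 6 and 7 and 105 with days added. DESeq2 called 72, 128, 55 and 243. No filter gave 68 on day 5, 55 on day 7 and 221 with days added. Library set 1 gave 15, 15, 13 and 42, and set 2 gave 22 on day 5, 35 on day 6 and 49 with days added. Leaving out 1 sample gave 31 to 33, 38 to 68, 16 to 26 and 66 to 79. For day 6 against 5, the 2445 calls in sgControl became 430 in set 1, 1374 in set 2, 1589 without the samples with few genes and 1726 to 2292 leaving 1 out, and the 1904 in sgRELA became 196, 1183 and 1242 to 1469. For day 7 against 5, the 3585 calls in sgControl became 820 in set 1 and 2638 to 2905 leaving 1 out, and the 3420 in sgRELA became 669 in set 1, 2222 in set 2 and 2509 to 2667. For day 7 against 6, the 4012 calls in sgControl became 1879, 2628 and 3196 to 3644, and the 3368 in sgRELA became 961 in set 1 and 2540 to 2724. The interaction called 1 gene, 14 with DESeq2, 24 with no filter, 4 without the samples with few genes, 0 in either library set (edgeR) and 0 to 3 leaving 1 out. At an unadjusted p under 0.05 the interaction had 1291 genes.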
